A study of Mus musculus with 4 samples.

Results

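Glial cell line-derived neurotrophic factor (GDNF) signalling was described in ID4-EGFP+ cells with and without *Cnot3* through 9 genes: the ligand *Gdnf*, the receptor subunits *Gfra1* and *Ret*, and the transcription factors *Etv5*, *Bcl6b*, *Lhx1*, *Eomes*, *T* and *Pou3f1*. They were taken by symbol from tables of 54920 genes. All 9 were found, and all 9 were among the 23952 genes that passed the expression filter. Total RNA was sequenced from 2 control and 2 *Cnot3*-cKO libraries of cells sorted from dissociated mouse testes at postnatal day 8. Every mouse carried *Cnot3* flox/flox and *Id4-eGfp* and received 4OHT, an active tamoxifen metabolite, on days 1 to 3 after birth. The *Cnot3*-cKO mice also carried *Ddx4-creER*, a recombinase that is switched on by 4OHT and driven by the promoter of a germ cell gene, so that the deletion was directed at germ cells. The controls are called wild-type in the labels but carried the floxed alleles. The study describes its RNA-seq replicates as biological and gives more of them than the 2 libraries per group analysed here. The labels do not say whether each library is 1 animal or a pool, so the p-values measure only the spread between these libraries.

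GDNF is secreted by Sertoli cells and peritubular myoid cells, the somatic cells that line the seminiferous tubule, and it is the main known signal for self-renewal of spermatogonial stem cells. It binds the membrane-anchored co-receptor GFRA1, and this complex activates the receptor tyrosine kinase RET, whose adaptors feed the PI3K-AKT and RAS-ERK cascades. In cultured stem cells the signal raises several transcription factors of the kind listed here. CNOT3 is a subunit of the CCR4-NOT complex, which shortens the poly(A) tails of mRNAs, often after an RNA-binding protein has brought it to a site in the 3′ UTR. The comparison asked how the transcripts of this pathway differed between *Cnot3*-cKO and control cells.

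Libraries held 40957899 and 43378493 reads in control and 22192964 and 28019626 in *Cnot3*-cKO. *Cnot3* had 58.6 and 50.2 CPM (read counts scaled to a common library size) in the controls against 19.2 and 19.9 CPM in *Cnot3*-cKO (log2 fold change -1.48 ± 0.13 SE, edgeR quasi-likelihood test, Benjamini-Hochberg adjusted p = 1.48e-05). Markers of other testis cells were present in all 4 libraries and moved with the genotype. Over all tested genes, 4.03% were called higher and 0.735% lower (adjusted p under 0.01 and fold change above 2). The summed level of 10 Sertoli cell markers was 89.9 to 90.0 CPM in control and 293 to 313 in *Cnot3*-cKO, and 9 of them, *Sox9* and *Amh* among them, were called higher. Leydig cell markers summed to 322 to 368 CPM against 831 to 896 (4 of 5 tested called higher). The mature marker *Insl3* was at 0 in every library. Macrophage markers summed to 166 to 258 CPM against 457 to 560 (7 of 8). Endothelial markers summed to 21.5 to 23.6 CPM against 35.2 to 40.7 (2 of 5). Peritubular myoid markers summed to 13.9 to 16.5 CPM against 20.4 to 25.7 (0 of 6). Single myoid markers went both ways, with log2 fold changes from -0.63 to 0.94. Of them, 4 were higher and 1 lower without overlap, against 30.5% and 28.6% of all tested genes. Pan-germ cell markers, *Ddx4* and *Dazl* among them, summed to 5955 to 6366 CPM against 5324 to 5553, with 0 of 10 called. By an adjusted p under 0.01 alone, 2 of them were lower and 0 higher, against 4.70% and 6.21% of all tested genes. Without overlap, 5 were lower and 2 higher, against 28.6% and 30.5%. Progenitor markers such as *Neurog3* summed to 106 to 113 CPM against 54.3 to 56.9 (4 of 5 called lower), and differentiating markers such as *Stra8* to 657 to 737 against 374 to 398 (2 of 4 called lower). The part of these cells in the results below was not tested except through the ratios given there. In bulk RNA, fewer cells of a type and less RNA per cell cannot be told apart.

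Transcripts of the ligand and the co-receptor were both higher in *Cnot3*-cKO, that of the kinase subunit did not pass the test, and those of the factors did not move as 1 block. A gene was called when its adjusted p was under 0.01 and its fold change above 2. By this rule 2 of the 9 genes, *Gdnf* and *Eomes*, were called higher and 0 lower, against 4.03% of all tested genes called higher and 0.735% called lower. By adjusted p alone, 5 of the 9 were higher (*Gdnf*, *Gfra1*, *Etv5*, *Bcl6b* and *Eomes*) and 0 lower, against 6.21% and 4.70% of all tested genes. For 7 genes the 2 *Cnot3*-cKO values were both higher than the 2 control values, and for 1, *Pou3f1*, both were lower, against 30.5% and 28.6% of all tested genes. The median log2 fold change was 0.65 over the 9 genes and 0.01 over all tested genes.

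**Figure D1:**
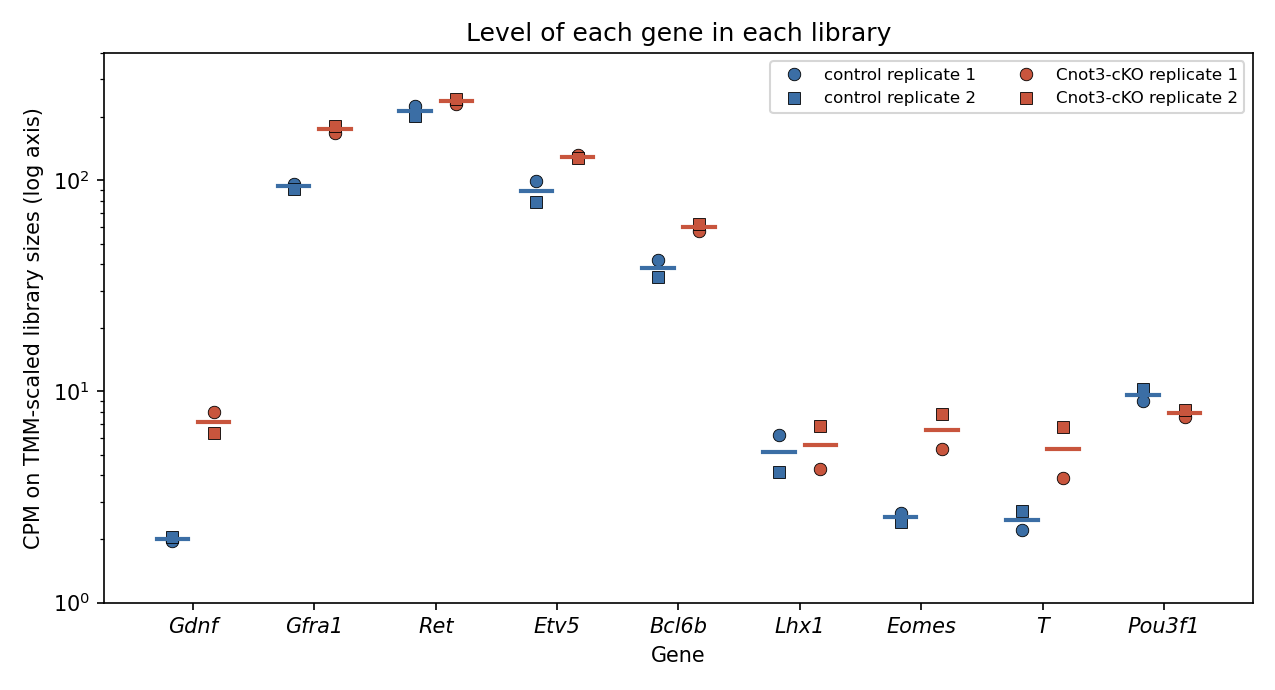
Level of each of the 9 genes in each library, in CPM on TMM-scaled library sizes (log axis). Circles and squares are replicates 1 and 2, and bars are the means of 2 libraries. The groups overlapped only for *Lhx1*, and *Gdnf* went from 1.96 and 2.04 CPM in control to 7.99 and 6.35 in *Cnot3*-cKO.

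*Gdnf*, which encodes the ligand (chr15:7810846-7837575, plus strand), had 79 and 86 reads in the controls and 181 and 182 in the *Cnot3*-cKO libraries. These counts correspond to 1.96 and 2.04 CPM against 7.99 and 6.35 CPM. The 2 controls were almost equal, and both *Cnot3*-cKO libraries lay far above them. The exact Poisson intervals, which cover counting error only, reached at most 2.52 CPM in the controls and went no lower than 5.46 CPM in *Cnot3*-cKO. The log2 fold change was 1.84 ± 0.26 SE (95% interval 1.27 to 2.40), a 3.57-fold higher level (edgeR, adjusted p = 0.000448). It was the largest difference among the 9 genes.

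*Gdnf* is a product of somatic cells, and the *Gdnf* reads were therefore set beside the reads of the somatic markers in each library. Most of the summed Sertoli and peritubular myoid marker reads were Sertoli reads (3623 of 4184 in control replicate 1, 8967 of 9702 in *Cnot3*-cKO replicate 2). Relative to this sum, *Gdnf* was 1.89% and 1.92% in the controls and 2.55% and 1.88% in *Cnot3*-cKO. These ranges overlapped, and the log2 difference of 0.20 had p = 1 in a two-sided exact permutation test. The difference was 0.42 or less in size with any 1 library left out, and it was -0.022 without *Cnot3*-cKO replicate 1. With 2 libraries in each group, 0.333 is the smallest p that an exact permutation test can give.

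The ratio depended on which somatic markers were used. Against Sertoli cell markers alone *Gdnf* was 2.18% and 2.27% in control and 2.73% and 2.03% in *Cnot3*-cKO (log2 difference 0.080, exact permutation p = 1). Against peritubular myoid markers alone it was 14.1% and 12.4% in control and 39.1% and 24.8% in *Cnot3*-cKO, without overlap (log2 difference 1.24, exact permutation p = 0.333). The peritubular myoid markers held few reads, 463 to 735 in each library. The part of the somatic cells in the level of *Gdnf* was not tested beyond these ratios. *Kitl*, another growth factor made by Sertoli cells, had 36.8 and 31.6 CPM in control and 146 and 160 in *Cnot3*-cKO (log2 fold change 2.16 ± 0.11 SE, edgeR adjusted p = 6.84e-07). *Gdnf* reads were 5.33% and 6.48% of *Kitl* reads in control and 5.48% and 3.98% in *Cnot3*-cKO, again with overlap (exact permutation p = 0.667).

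**Figure D2:**
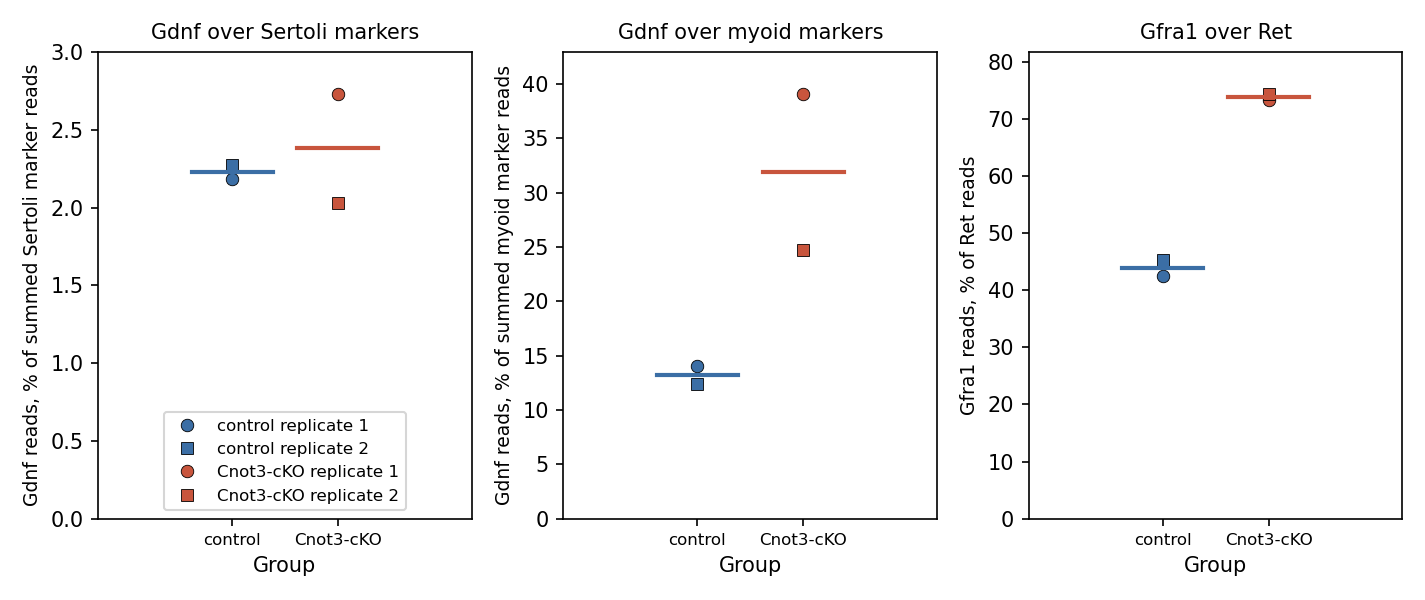
Reads of *Gdnf* as a percentage of Sertoli cell marker reads (left) and of peritubular myoid marker reads (middle), and reads of *Gfra1* as a percentage of *Ret* reads (right), in each library, with bars at group means (n = 2). The groups overlapped against Sertoli cell markers (2.18% and 2.27%, then 2.73% and 2.03%) and were apart in the other panels.

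*Gfra1*, the GDNF-binding co-receptor (chr19:58235604-58455909, minus strand), had 3855 and 3827 reads in control and 3802 and 5167 in *Cnot3*-cKO. These are 95.7 and 91.0 CPM against 168 and 180 CPM. Replicates were close within each group and the groups did not overlap. The log2 fold change was 0.90 ± 0.089 SE (95% interval 0.71 to 1.09), or 1.87-fold, with an edgeR adjusted p of 3.68e-05, so the gene passed the test but not the fold change limit. Within the tubule *Gfra1* is known mainly as a germ cell transcript. Against the pan-germ cell markers it was 1.61% and 1.43% in control and 3.15% and 3.25% in *Cnot3*-cKO (log2 difference 1.08, exact permutation p = 0.333). When libraries were scaled to those markers, its log2 fold change was 1.08 and it was called higher. Of 13 alternative settings this was the only 1 in which *Gfra1* was called, and it moved the median of all genes to 0.19.

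*Ret*, the signalling subunit (chr6:118151745-118197718, minus strand), had 225 and 201 CPM in control and 229 and 243 CPM in *Cnot3*-cKO. Both *Cnot3*-cKO values were above both controls, and the gap between the groups was smaller than that between the controls. The log2 fold change was 0.15 ± 0.087 SE (95% interval -0.044 to 0.34, edgeR adjusted p = 0.279), which did not pass. The interval holds 0 and excludes a 2-fold difference.

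The reads of *Gfra1* and *Ret* therefore stood in a different proportion in the libraries of the 2 genotypes. Protein was not measured here. *Gfra1* reads were 42.5% and 45.3% of *Ret* reads in control and 73.3% and 74.4% in *Cnot3*-cKO. Within each group the libraries differed by a few percentage points, and between groups the gap was much wider. The log2 difference was 0.75 and lay between 0.70 and 0.80 with any 1 library left out (exact permutation p = 0.333, the smallest possible). *Kit*, the receptor that appears as spermatogonia differentiate, had 255 and 277 CPM in control and 119 and 138 in *Cnot3*-cKO and was called lower (log2 fold change -1.05 ± 0.094 SE, edgeR adjusted p = 1.70e-05). The call for *Kit* was lost, at the fold change limit, without *Cnot3*-cKO replicate 1 (-0.96), with library size only (-0.99) and under pan-germ cell scaling (-0.87). *Gfra1* reads were 37.5% and 32.8% of *Kit* reads in control and 141% and 131% in *Cnot3*-cKO.

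*Etv5*, an ETS factor needed for stem cell self-renewal (chr16:22381309-22439719, minus strand), had 98.9 and 78.6 CPM in control and 131 and 128 CPM in *Cnot3*-cKO. *Bcl6b*, a zinc finger repressor and a classical GDNF-induced gene (chr11:70224128-70229798, minus strand), had 41.7 and 34.9 CPM in control and 57.7 and 62.1 CPM in *Cnot3*-cKO. Both genes were higher in *Cnot3*-cKO without overlap, and in both control replicate 2 was the lowest library. *Etv5* differed by 0.54 ± 0.11 SE on the log2 scale (1.46-fold, edgeR adjusted p = 0.00452) and *Bcl6b* by 0.65 ± 0.12 SE (1.56-fold, adjusted p = 0.00257). Both were below the fold change limit. *Etv5* is also made by Sertoli cells, and its reads were 110% and 87.4% of the Sertoli cell marker reads in control and 44.8% and 40.8% in *Cnot3*-cKO. Leaving out control replicate 2 lowered the difference to 0.37 for *Etv5* and to 0.51 for *Bcl6b*, and the adjusted p stayed under the threshold.

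Relative to *Gfra1* reads, the reads of both factors were lower in *Cnot3*-cKO. This restates their smaller log2 fold changes beside the 0.90 of *Gfra1* and is no separate result. *Etv5* reads were 103% and 86.4% of *Gfra1* reads in control and 78.1% and 70.7% in *Cnot3*-cKO (log2 difference -0.35). *Bcl6b* reads were 43.6% and 38.3% of *Gfra1* reads in control and 34.4% in both *Cnot3*-cKO libraries (log2 difference -0.25). Neither pair of groups overlapped, and each exact permutation p was 0.333.

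*Eomes*, a T-box factor found in a subset of GFRA1+ spermatogonia (chr9:118478212-118486132, plus strand), had 107 and 101 reads in control and 121 and 225 in *Cnot3*-cKO. Its levels were 2.66 and 2.40 CPM against 5.34 and 7.86 CPM. The controls were close, both *Cnot3*-cKO libraries were higher, and these were themselves apart. Beside the Sertoli cell marker reads, *Eomes* reads were 2.95% and 2.67% in control and 1.83% and 2.51% in *Cnot3*-cKO. The part of other testis cells in the level of *Eomes* was not tested. *Eomes* was called higher at a log2 fold change of 1.39 ± 0.27 SE (95% interval 0.80 to 1.98, 2.62-fold, edgeR adjusted p = 0.00357). Without *Cnot3*-cKO replicate 2 the difference was 1.07 and the call was lost (adjusted p = 0.0210), which left 1 of the 9 genes called higher.

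*T*, the T-box factor brachyury (chr17:8434423-8442496, plus strand), had 89 and 114 reads in control and 88 and 194 in *Cnot3*-cKO. This gave 2.21 and 2.71 CPM against 3.88 and 6.77 CPM. The groups did not overlap, but *Cnot3*-cKO replicate 2 was far above replicate 1, as for *Eomes*. At a log2 fold change of 1.12 ± 0.31 SE (95% interval 0.45 to 1.80) *T* did not pass (edgeR adjusted p = 0.0224). It was called higher without *Cnot3*-cKO replicate 1 (1.45) or control replicate 2 (1.26), and had 0.65 with adjusted p = 0.255 without *Cnot3*-cKO replicate 2.

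*Lhx1*, a LIM homeobox factor used as a marker of stem cells (chr11:84518284-84525535, minus strand), had 6.23 and 4.14 CPM in control and 4.28 and 6.84 CPM in *Cnot3*-cKO. Each group held 1 high and 1 low library. The log2 fold change was 0.11 ± 0.29 SE (95% interval -0.52 to 0.74, edgeR adjusted p = 0.843), and its sign turned without control replicate 2 (-0.17) or *Cnot3*-cKO replicate 2 (-0.28). A difference within this interval is not excluded at this depth and number of libraries.

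*Pou3f1*, a POU-domain factor that GDNF raises in cultured stem cells (chr4:124656807-124660655, plus strand), had 9.01 and 10.3 CPM in control and 7.59 and 8.14 CPM in *Cnot3*-cKO. It was the 1 gene of the 9 with both *Cnot3*-cKO libraries below both controls. The log2 fold change was -0.29 ± 0.20 SE (95% interval -0.72 to 0.13, edgeR adjusted p = 0.337), so it did not pass.

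**Figure D3:**
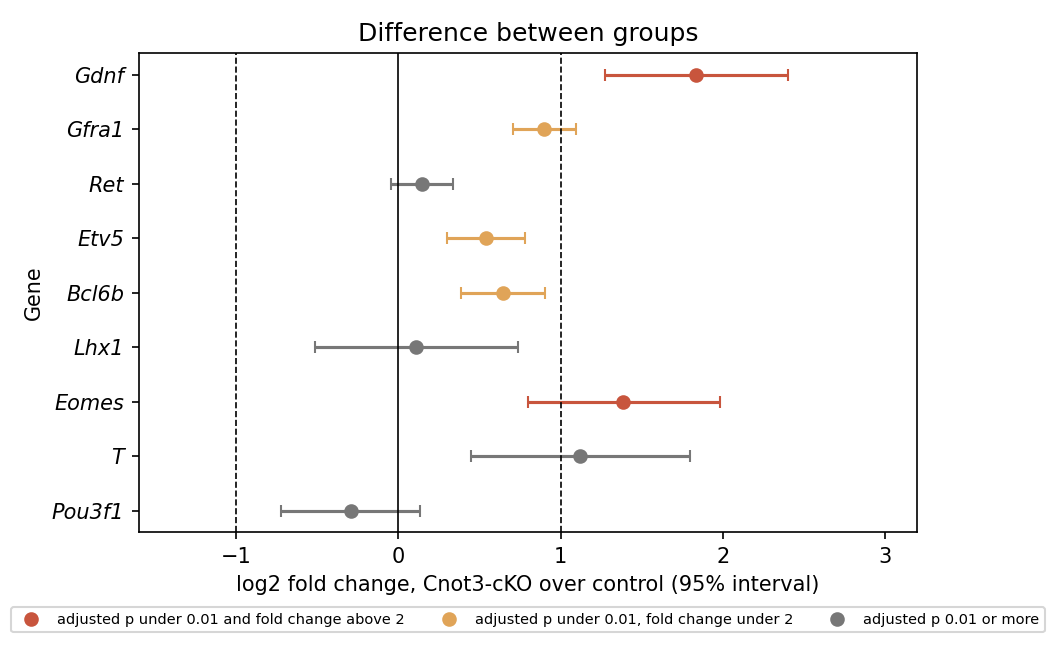
Log2 fold change of each gene, *Cnot3*-cKO over control, with its 95% interval from the edgeR fit (2 libraries per group). Dashed lines mark a 2-fold difference. *Gdnf* (1.84) and *Eomes* (1.39) were called, *Gfra1* (0.90), *Bcl6b* (0.65) and *Etv5* (0.54) passed the adjusted p alone, and the intervals of *Ret*, *Lhx1* and *Pou3f1* held 0.

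Transcript levels per length spanned a wide range among the 9 genes. Divided by the length of the annotated exons, *Ret* was the most abundant in control (29.7 to 33.3 CPM per kb). It was followed by *Etv5* (19.2 to 24.1), *Gfra1* (16.6 to 17.5), *Bcl6b* (9.38 to 11.2) and *Pou3f1* (2.34 to 2.67). *Lhx1* (1.02 to 1.53) and *T* (0.955 to 1.17) overlapped, and *Eomes* (0.578 to 0.639) and *Gdnf* (0.534 to 0.556) were the lowest. In *Cnot3*-cKO the order began with *Ret* (33.9 to 35.9 CPM per kb), but *Gfra1* (30.6 to 32.9) now overlapped *Etv5* (31.1 to 31.9). *Bcl6b* followed at 15.5 to 16.7, and the remaining 5 genes lay between 1.05 and 2.93 CPM per kb with each overlapping the next. These values are levels, and the order says nothing of protein.

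The genes whose pattern over the 4 libraries lay closest to that of each receptor gene or the ligand were found by the Euclidean distance of centred log2 CPM over 15519 genes. For *Gdnf* they were *Dpf3* (distance 0.0191), *Dtx3* (0.0666) and *Dmrta1* (0.109), with log2 fold changes from 1.77 to 1.84. For *Gfra1* they were *Cdc42ep3*, *Pakap* and *Col4a6* (distances 0.0279 to 0.0376, log2 fold changes 0.90 to 0.94). For *Ret* they were *Erbin*, *Smoc2* and *Kdm6a* (distances 0.0162 to 0.0201, log2 fold changes 0.14 to 0.16). With 4 libraries many genes share a pattern by this measure. It picks genes with a like difference between the groups, so the like log2 fold changes follow from the choice.

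Because CCR4-NOT is brought to mRNAs by proteins such as Pumilio and the AU-rich element binders, the annotated 3′ UTRs of the 9 genes were searched on the transcribed strand for the Pumilio motif TGTANATA and the AU-rich heptamer TATTTAT. Over 20622 genes, 21.5% held the first and 25.4% the second. *Gdnf* held 3 heptamers, *Etv5* 1 heptamer and 1 Pumilio motif, *Ret* 1 Pumilio motif, *Bcl6b* 2 Pumilio motifs, and *Pou3f1* 4 heptamers and 1 Pumilio motif. Neither motif was found in the windows of *Gfra1*, *Lhx1*, *Eomes* or *T*. No heptamer overlapped a Pumilio motif. The number rises with the length of the UTR, and among genes with a UTR within 25% of the same length, 7.43% had at least as many heptamers as *Gdnf*, 0.958% at least as many as *Pou3f1*, and 8.80% at least as many Pumilio motifs as *Bcl6b*.

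The sites of the 3 genes with more than 1 match of the same motif are shown with their flanks, from the GRCm38 assembly and with the motif in capitals. Those of *Gdnf* lie at chr15:7835757-7835785, chr15:7835783-7835811 and chr15:7835824-7835852 on the plus strand, and the flanks of the first and the next overlap.
Gdnf site 1: tatagagaagaTATTTATtgagattttaa
Gdnf site 2: taagttattatTATTTATtaccattcact
Gdnf site 3: ttttcttccctTATTTATtaaagtctctt
Those of *Bcl6b* lie at chr11:70225701-70225730 and chr11:70225255-70225284 on the minus strand.
Bcl6b site 1: aatggtttatcTGTAAATAtaatttattga
Bcl6b site 2: tgaacccaaaaTGTAGATAataaactcccc
The heptamers of *Pou3f1* lie at chr4:124659634-124659662, chr4:124659712-124659740, chr4:124660415-124660443 and chr4:124660594-124660622 on the plus strand.
Pou3f1 site 1: tttacggttttTATTTATtcgtggagcct
Pou3f1 site 2: gctgtatgctgTATTTATcggggccccag
Pou3f1 site 3: tgacccatctcTATTTATtttctggatgt
Pou3f1 site 4: agttccctttaTATTTATgttatagtaaa
A link between the motifs and the differences was not tested. *Gdnf* (log2 fold change 1.84) and *Pou3f1* (-0.29, not past the test) were the genes with several heptamers, and *Eomes* (1.39) and *Gfra1* (0.90) held no match. A match is a match of letters and no evidence of binding.

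The genes around the 9 were described by 6 lists of 57 genes, of which 53 were tested. Of these, 3 were called higher and 1 lower, against 4.03% and 0.735% of all tested genes, and by adjusted p alone 4 were higher and 3 lower, against 6.21% and 4.70%. Without overlap, 18 were higher and 20 lower, against 30.5% and 28.6%. The median log2 fold change was -0.11. This median turned to 0.068 when libraries were scaled to the pan-germ cell markers, a scaling that moved the median of all genes to 0.19.

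Among the other ligands and receptors of the family, 6 of 10 genes were tested and the median was -0.25. Of the 6, 0 were called higher and 1 lower, against 4.03% and 0.735% of all tested genes. *Gfra3*, the co-receptor of artemin, was called lower. It had 6.88 and 8.30 CPM in control and 2.43 and 4.15 CPM in *Cnot3*-cKO (log2 fold change -1.19 ± 0.28 SE, edgeR adjusted p = 0.00929). The call was lost without *Cnot3*-cKO replicate 1 (-0.88) and in a test against a fold change of 2. It was also lost with library size only (-1.13, edgeR adjusted p = 0.0131) and under pan-germ cell scaling (-1.02, edgeR adjusted p = 0.0196). *Artn*, the ligand of GFRA3, had few reads, with 22 and 47 reads in control and 0 and 4 in *Cnot3*-cKO (edgeR adjusted p = 0.0248). Its log2 fold change ranged from -7.87 to -2.56 with 1 library left out. *Gfra4*, the co-receptor of persephin, had 284 reads in both controls and 170 and 214 in *Cnot3*-cKO, which is a log2 fold change of 0.12 at the lower depth (adjusted p = 0.754). *Gfra2* had between 1 and 11 reads in each library and was not tested.

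Among the intracellular arms, 1 of 15 RET adaptors and kinases was called higher and 0 lower, against 4.03% and 0.735% of all tested genes (median -0.09, or 0.081 under pan-germ cell scaling). This was *Lyn*, a SRC-family kinase that is abundant in macrophages, at 5.02 and 3.45 CPM in control and 14.5 and 10.6 CPM in *Cnot3*-cKO (log2 fold change 1.57 ± 0.25 SE, edgeR adjusted p = 0.000879). The 8 macrophage markers, of which 7 were called higher, had a median log2 fold change of 1.27, and their part in the result for *Lyn* was not tested. The adaptor *Grb2* had the lowest value of the list (-0.42, adjusted p = 0.0383).

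In the PI3K-AKT arm 0 of 9 genes were called, against 4.03% of all tested genes called higher and 0.735% called lower. By adjusted p alone 2 passed, both lower, against 4.70% of all tested genes. The kinase *Akt1* was 1 of these 2 (-0.55 ± 0.13 SE, edgeR adjusted p = 0.00813). The lipid kinase subunit *Pik3ca* had the highest value (0.10, adjusted p = 0.447), and the median was -0.22, or -0.038 under pan-germ cell scaling. *Akt1* no longer passed without control replicate 2 (-0.35, adjusted p = 0.0133) or *Cnot3*-cKO replicate 2 (-0.52, adjusted p = 0.0134), with library size only (-0.49) or under pan-germ cell scaling (-0.37). In the RAS-ERK arm 0 of 9 genes passed either rule. *Hras* was lowest (-0.45, adjusted p = 0.0524) and the ERK kinase gene *Mapk3* highest (0.30, adjusted p = 0.0731), with a median of -0.31, or -0.13 under pan-germ cell scaling. *Hras* was at -0.66 without control replicate 1, where it passed by adjusted p alone (4.42e-05, edgeR), and at -0.24 without control replicate 2.

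The feedback inhibitors that ERK activity induces had a median of 0.55 over 7 genes. Of these, 6 were higher and 1 lower in both *Cnot3*-cKO libraries than in both controls, against 30.5% and 28.6% of all tested genes. By the call rule 1 was higher and 0 lower, against 4.03% and 0.735%. By adjusted p alone 2 were higher and 0 lower, against 6.21% and 4.70%. *Dusp6*, a phosphatase of ERK, was called higher. It had 60.2 and 53.9 CPM in control and 133 and 136 CPM in *Cnot3*-cKO (log2 fold change 1.24 ± 0.097 SE, 2.36-fold, edgeR adjusted p = 6.15e-06). The SPROUTY gene *Spry4* passed by adjusted p alone (0.94 ± 0.21 SE, adjusted p = 0.00807), and *Spred2* had the lowest value (-0.48, adjusted p = 0.0810). Control replicate 2 was the lowest library for *Spry4*, which was at 0.59 without it and at 1.37, and called, without control replicate 1. *Spred2* was at -0.21 without control replicate 1 and at -0.74 without control replicate 2, where it passed by adjusted p alone (0.000326, edgeR). The part of other testis cells in the values of this list and the next was not tested. Among 7 other GDNF-responsive genes the median was 0.43, and 1 was called higher and 0 lower, against 4.03% and 0.735% of all tested genes. *Cxcr4*, a chemokine receptor, was called higher at 8.42 and 8.44 CPM in control and 21.1 and 22.6 CPM in *Cnot3*-cKO (1.37 ± 0.16 SE, adjusted p = 0.000132), and *Nanos2*, an RNA-binding factor of stem cells, had the lowest value (-0.24, adjusted p = 0.672).

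**Figure D4:**
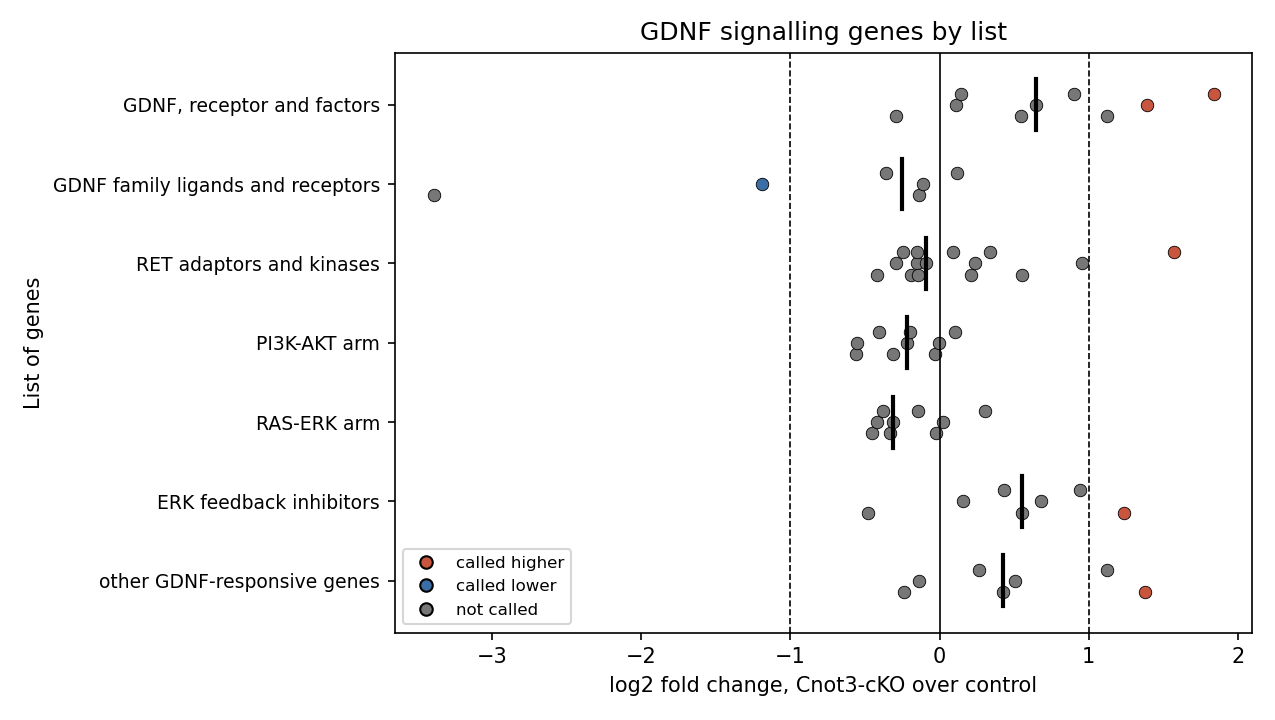
Log2 fold change, *Cnot3*-cKO over control, of each tested gene in the 9-gene group and the 6 lists around it, with a vertical bar at each median and dashed lines at a 2-fold difference. The medians were 0.65 for the 9 genes, 0.55 for the ERK feedback inhibitors and 0.43 for the other GDNF-responsive genes, and between -0.31 and -0.09 for the remaining lists.

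Paralogs of the induced factors were set beside them, with 7 of 9 tested. Of these, 0 were called, against 4.03% of all tested genes called higher and 0.735% called lower. *Etv4*, a close relative of *Etv5*, passed by adjusted p alone and was higher (0.67 ± 0.12 SE, edgeR adjusted p = 0.00197), and *Bcl6*, a relative of *Bcl6b*, was lower (-0.85 ± 0.18 SE, adjusted p = 0.00587). The highest value was that of *Etv1* (1.12, adjusted p = 0.0215) and the lowest that of *Pou3f2* (-1.02, adjusted p = 0.0232), both short of the threshold. *Pou3f2* was called lower without *Cnot3*-cKO replicate 1 (-1.33), and *Bcl6* no longer passed without *Cnot3*-cKO replicate 2 (-0.69, adjusted p = 0.0470) or under pan-germ cell scaling (-0.67). The median of the list was -0.38.

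Factors of undifferentiated spermatogonia outside the GDNF group had a median of -0.50. Of 6 genes, 1 was called higher and 0 lower, against 4.03% and 0.735% of all tested genes. By adjusted p alone 1 was higher and 3 lower, against 6.21% and 4.70%. The 1 called was *Id4*, the gene whose reporter was used for the sort, at 20.6 and 19.7 CPM in control and 36.3 and 46.3 CPM in *Cnot3*-cKO (log2 fold change 1.04 ± 0.14 SE, edgeR adjusted p = 0.000405). It fell short of the fold change limit without control replicate 2 (0.99) or *Cnot3*-cKO replicate 2 (0.84). *Foxo1* (-0.87 ± 0.16 SE, adjusted p = 0.00235) and *Zbtb16* (-0.82 ± 0.10 SE, adjusted p = 0.000193) were the lowest of this list, on the other side of 0 from *Gfra1*, *Etv5* and *Bcl6b*. *Foxo1* was at -0.56 without control replicate 1 and at -1.14 without control replicate 2, and did not pass in DESeq2 (adjusted p = 0.0228) or under pan-germ cell scaling (adjusted p = 0.0142).

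Reads from neighbouring genes on the opposite strand could reach 3 of the 9 genes where the counting ignored strand, which is not given in the sources used here. The partners of *Gfra1*, *Eomes* and *Pou3f1* (*Gm16277*, *Gm33460* and *Gm2164*) had between 0 and 17 reads in each library.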

How the data were processed

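RNA-seq counts of 2 control and 2 *Cnot3*-cKO libraries were used. Per the labels and the study's methods, the authors sorted ID4-EGFP+ cells, made stranded total RNA libraries, and used STAR (genome mm10) and featureCounts to make the counts. The deposited counts were not normalized. The strand and multi-mapping settings of the counting are not given in the sources used here. Samples were grouped by title.

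Counts were fitted over all genes with edgeR 4.0.16 in R 4.3.3 (TMM scaling, default expression filter, quasi-likelihood F test, no covariates, Benjamini-Hochberg adjustment). A call needed a fold change over 2 with an adjusted p below 0.01. Each SE is the log2 fold change divided by the root of its F value. The study used DESeq2, and DESeq2 1.42.0 was an alternative. CPM used TMM-scaled library sizes. Ratios of counts were compared by two-sided exact permutation tests, and those other than *Gdnf* to the joint somatic markers and *Gfra1* to *Ret* were chosen after the data had been seen. Log2 CPM for the distances had a prior count of 2 and an average of at least 1. Gene and UTR positions came from GENCODE M21 on GRCm38, with the UTR of the transcript with the longest coding sequence, whereas the authors' annotation was another release.

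The 9 genes and the lists were chosen with earlier results of these data known. The naming rule took *Cnot3*, the 9 genes, every called gene of a list or otherwise its highest and lowest, and the 3 nearest genes of *Gdnf*, *Gfra1* and *Ret*. *Spry4*, *Akt1*, *Etv4*, *Bcl6*, *Zbtb16*, *Gfra2* and *Neurog3* or *Stra8* as examples were named after their values were seen. The values of 1 gene that the rule would name are not reported here. Libraries of a group differed beyond counting noise (mean chi-square per gene 23.6 in control and 7.24 in *Cnot3*-cKO). The fit was tested on simulated data. Figures were drawn with matplotlib 3.10.9 (Python 3.11.15).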

Additional observations from a re-analysis of the deposited data

How the results depend on the processing

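With 2 libraries per group and 22192964 to 43378493 reads, differences within the intervals given for *Ret*, *Lhx1* and *Pou3f1* are not excluded. Over 13 alternatives (DESeq2's RLE scaling, library size only, scaling to pan-germ cell markers, a minimum mean count of 50, no filter on expression, DESeq2, a replicate block, a test against a fold change of 2 with glmTreat, each library left out, and thinning to the smallest library, which was chosen after seeing the data), 8 of the 9 genes kept their direction, and *Gdnf* and *Eomes* ranged from 1.65 to 2.02 and from 1.07 to 1.63. *Lhx1* reversed when thinned (-0.028), and ranged from -0.28 to 0.42 with 1 library left out. The genes of the group called higher were 4 under pan-germ cell scaling (*Gfra1* and *T* added), 0 under glmTreat (where 0 also passed by adjusted p alone) and 1 to 3 with 1 library left out. Pathway genes called higher were 5 under pan-germ cell scaling and 0 under glmTreat. Pathway genes called lower were 0 with library size only, pan-germ cell scaling or glmTreat, 2 without the filter, and 0 to 2 with 1 library left out. *Cnot3* kept -1.48 under glmTreat (adjusted p = 0.0346). The cause was not tested in any of these, other than that glmTreat asks for a difference beyond 2-fold. The log2 ratio of *Gdnf* to somatic markers moved to 1.24 with peritubular myoid markers alone and ranged from -0.022 to 0.42 with 1 library left out. Over all genes, 285 were called lower without the filter, 81 under pan-germ cell scaling and 271 without *Cnot3*-cKO replicate 2, against 176, and 87 higher and 5 lower under glmTreat.

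Libraries with the same number shared little (correlation of deviations 0.0822 over 15519 genes), and the labels give no pairing. Whether they were paired in litter or sort cannot be told from this correlation. The replicate block gave 1155 genes higher and 217 lower, called *T* (1.08, adjusted p = 0.00598 in edgeR), and gave 2 pathway genes called lower.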
